A study of Saccharomyces cerevisiae with 7 samples.

Results

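The nearer region of the PGK1 reporters was the stretch of message that ends at the ribosome stall. It was defined by position, as positions 806 to 1040 of the stem loop (SL) reporter and positions 806 to 950 of the (CGA)12 and (AAA)12 reporters, where the last position is the stall in each. These were 235 of the 669 to 747 positions with listed reads in the SL libraries and 145 of the 503 to 668 positions in the codon-repeat libraries. Positions 606 to 805, the 200 positions before it, are called the far region here and served for comparison. Positions carry the numbers of the deposited tables, distances are in nt upstream of the stall, and a position holds the reads whose 3'-end maps to it.

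The 7 libraries mapped the 3'-ends of the 5'-fragments that No-Go decay (NGD) leaves on a stalled reporter message, in *Saccharomyces cerevisiae* BY4741 cells with *SKI2* deleted. The strains were *rps3* (R116A/R117A) with each of the 3 reporters, *asc1* (R38D/K40E) with SL only, and *dom34Δ* with each of the 3 reporters, all grown in galactose and raffinose medium without uracil. Each condition was 1 library, made from RNA of at least 2 biological replicates together, and no spread between replicates exists within a condition. Cells with wild-type *RPS3*, *ASC1* and *DOM34* were not analysed here, nor was *asc1* with (CGA)12 or (AAA)12.

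NGD acts on messages on which ribosomes stall and collide. An endonuclease cuts the message upstream of the stall, the exosome with its helicase Ski2 (YLR398C) then degrades the 5'-fragment from its 3'-end, and deletion of *SKI2* keeps that fragment. Rps3 (YNL178W) lines the tunnel by which mRNA enters the small subunit, Asc1 (YMR116C) sits on the same subunit and takes part in ribosome quality control, and Dom34 (YNL001W) splits stalled ribosomes. The reporters are built on PGK1 (YCR012W), a glycolytic gene on chromosome III at 137746 to 138996 in the R64 assembly. A stem loop blocks ribosomes by its structure, runs of CGA are decoded poorly, and runs of AAA encode lysines that slow the ribosome.

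Depth ranged from 606108 reads (*rps3*, (AAA)12) to 4867111 reads (*dom34Δ*, SL), so that 3 reads stood for 0.000495% and 6.16e-05% of these libraries. The rule under which the region was taken speaks of an empty zone next to the stall. The data did not show an empty zone, since every position of the nearer region had reads in every library, with a lowest count of 9 reads (*asc1*, SL). For *rps3* and *dom34Δ* cells, in that order, the lowest counts were 24 and 29 with SL, 51 and 167 with (CGA)12, and 109 and 435 with (AAA)12. The zone is therefore described below as a zone of low counts.

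The nearer region held a larger part of the ends in *rps3* than in *dom34Δ* cells with each of the 3 reporters. With SL its share of library reads was 41.8% in *rps3* (95% Wilson interval 41.7 to 41.9), 51.7% in *asc1* (51.6 to 51.7) and 29.8% in *dom34Δ* cells (29.7 to 29.8). With (CGA)12 it was 68.7% in *rps3* (68.6 to 68.8) and 56.0% in *dom34Δ* cells (56.0 to 56.1). With (AAA)12 it was 63.7% in *rps3* (63.5 to 63.8) and 56.4% in *dom34Δ* cells (56.4 to 56.5). The highest SL share was that of *asc1* cells, and both *rps3* codon-repeat libraries lay above both *dom34Δ* ones. Intervals cover counting error only, since PCR copies of a molecule were not told apart.

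The *rps3* share exceeded the *dom34Δ* share by 12.0 percentage points with SL, 12.7 with (CGA)12 and 7.25 with (AAA)12, a mean of 10.7 ± 2.96 (SD, n = 3 pairs, higher in 3 of 3). The 2-sided exact permutation test over the pairs gave p = 0.25, the smallest value that 3 pairs allow (0.333 after Benjamini-Hochberg adjustment over the 4 tests of this kind). The reporters are the only repeats of the strain contrast, so its spread also holds true differences between reporters. When all 3 differences share a sign this test gives 0.25 whatever their spread. No p-value here measures a spread between replicates of a condition.

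The reporters differed in how densely the region was covered. Per position, the nearer region of SL held a mean of 0.178% of the library in *rps3*, 0.220% in *asc1* and 0.127% in *dom34Δ* cells, below the far region in each strain (0.289%, 0.241% and 0.349% in the same strain order). The SL means include the 90 positions 951 to 1040, which the codon-repeat means lack. With the codon repeats the nearer region lay above the far region. The means were 0.474% near and 0.1498% far in *rps3* cells with (CGA)12, 0.387% and 0.216% in *dom34Δ* cells with (CGA)12, 0.439% and 0.178% in *rps3* cells with (AAA)12, and 0.389% and 0.214% in *dom34Δ* cells with (AAA)12. Of the SL reads in the nearer region, few fell between the place of the codon-repeat stall and the stem loop. The 90 positions 951 to 1040 held 4.84% of the library in *rps3*, 3.59% in *asc1* and 2.05% in *dom34Δ* cells, while positions 806 to 950 held 37.0%, 48.1% and 27.7% in the same order. Within equal spans of 144 positions next to the stall, SL libraries held 15.5% (*rps3*), 13.8% (*asc1*) and 11.1% (*dom34Δ*) of the reads from position 606 to the stall. The codon-repeat libraries held 69.5% (*rps3*) and 56.1% (*dom34Δ*) with (CGA)12 and 64.1% (*rps3*) and 56.6% (*dom34Δ*) with (AAA)12.

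**Figure D1:**
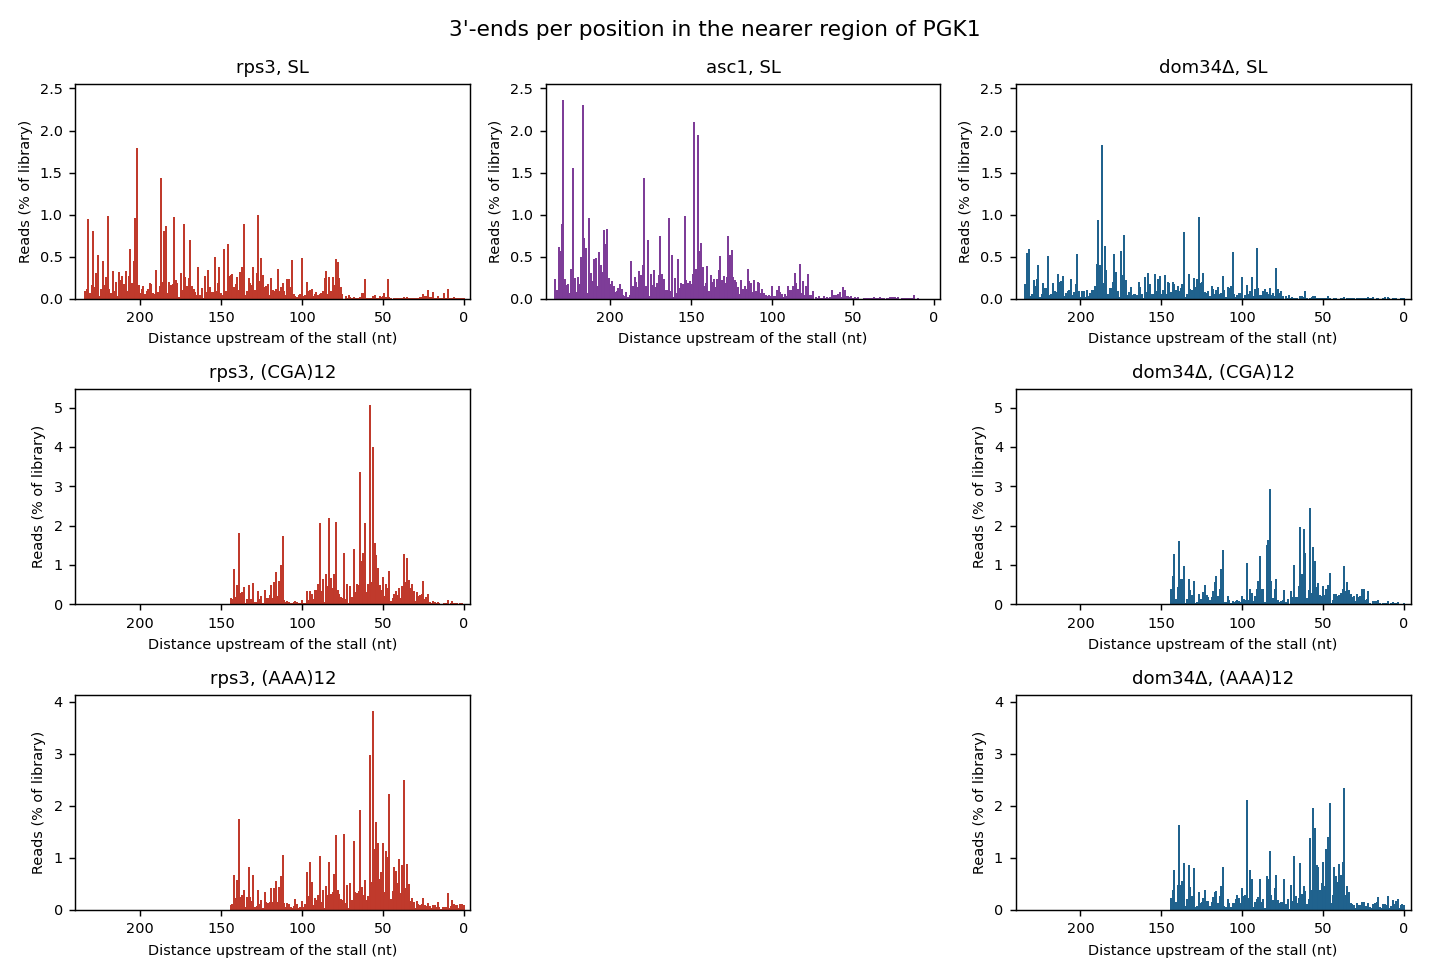
Share of library reads (%, vertical axis, scaled per reporter) at each position of the nearer region by distance upstream of the stall (nt, horizontal axis), with *rps3* left, *asc1* in the middle and *dom34Δ* right, and SL, (CGA)12 and (AAA)12 from top to bottom. SL ends thin out within about 75 nt of the stall, whereas ends of the codon-repeat libraries are dense to about 35 nt, with the highest position at 5.07% in *rps3* cells with (CGA)12.

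From an outer window to one next to the stall, ends declined in every library, steeply with SL and little with the codon repeats. The decline was measured as the log2 ratio of reads more than 100 and up to 140 nt upstream over reads 1 to 40 nt upstream. With SL, the outer window held 8.69% of the library in *rps3*, 8.62% in *asc1* and 6.75% in *dom34Δ* cells, and the window next to the stall held 0.807%, 0.322% and 0.196% in the same order. The log2 ratio was thus 3.43 in *rps3*, 4.74 in *asc1* and 5.11 in *dom34Δ* cells, that is 10.8-, 26.7- and 34.5-fold. These SL strains differed mainly in the window next to the stall and little in the outer one.

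With (CGA)12, the outer and inner windows held 12.6% and 8.86% of the library in *rps3*, against 13.8% and 6.62% in *dom34Δ* cells, and the log2 ratio was 0.51 in *rps3* and 1.06 in *dom34Δ* cells. With (AAA)12 they held 11.8% and 9.82% in *rps3*, against 12.8% and 9.51% in *dom34Δ* cells, with log2 ratios of 0.26 and 0.43. In each pair the *rps3* library had the shallower decline. The difference, *rps3* minus *dom34Δ*, was -1.68 with SL, -0.55 with (CGA)12 and -0.16 with (AAA)12, a mean of -0.80 ± 0.79 (SD, n = 3 pairs, exact permutation p = 0.25, the smallest possible). Without the SL pair the mean was -0.36, so the size of this difference rested on SL.

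Between the 2 windows the SL profiles lacked a maximum that the codon-repeat profiles passed through. In bins of 20 nt, the bin at 41 to 60 nt held 0.546% of the SL library in *rps3*, 0.616% in *asc1* and 0.187% in *dom34Δ* cells. The highest bin of *rps3* cells with (CGA)12 lay 41 to 60 nt upstream with 18.8% of the library, and that of *dom34Δ* cells with (CGA)12 lay 81 to 100 nt upstream with 12.4%. With (AAA)12 the highest bin was 41 to 60 nt in both strains, with 21.9% in *rps3* and 16.6% in *dom34Δ* cells. From these maxima the codon-repeat ends also fell steeply, which the ratio of the 2 windows does not show. The bin at 1 to 20 nt held 0.682% (*rps3*) and 0.795% (*dom34Δ*) with (CGA)12, and 1.77% and 2.32% with (AAA)12.

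In the SL libraries the highest bin of the nearer region lay far from the stem loop. It was 201 to 220 nt upstream in *rps3* cells (7.61%) and in *asc1* cells (11.0%), and 181 to 200 nt upstream in *dom34Δ* cells (5.82%). *asc1* cells had a further high bin at 141 to 160 nt (9.67%), where *rps3* cells had 4.73% and *dom34Δ* cells 3.27%. The median distance of the reads within the nearer region was close in the 3 SL strains, at 169 nt in *rps3*, 170 nt in *asc1* and 172 nt in *dom34Δ* cells. In *rps3* cells it was 64 nt with (CGA)12 and 61 nt with (AAA)12, against 82 nt and 65 nt in *dom34Δ* cells.

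**Figure D2:**
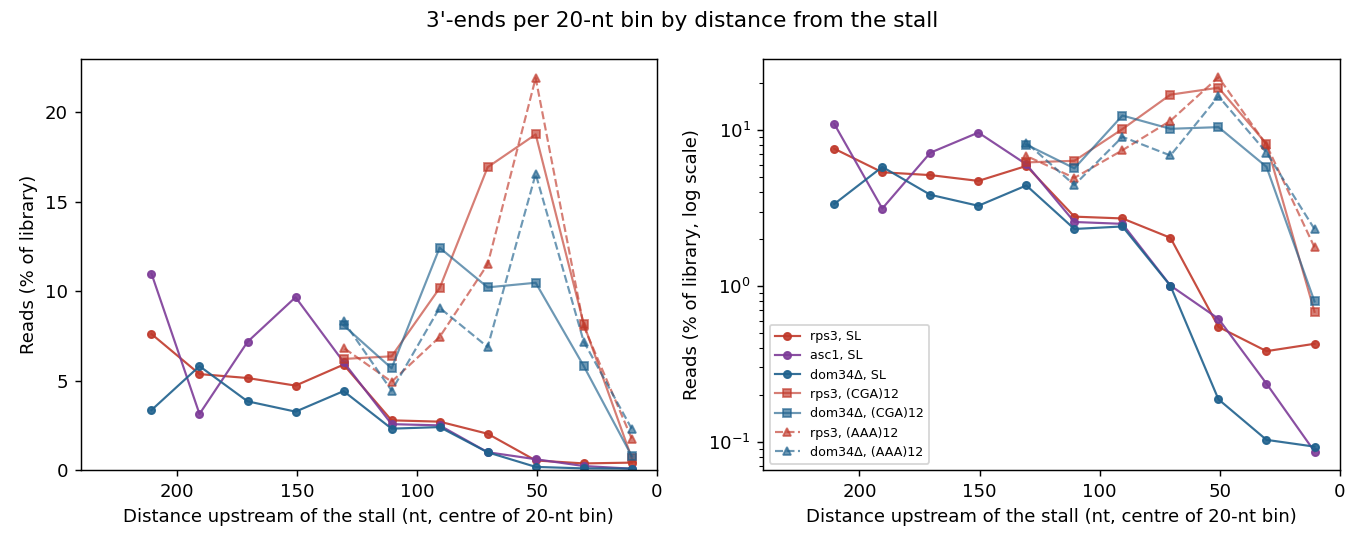
Share of library reads (%) per 20-nt bin of distance upstream of the stall (nt), on a linear axis on the left and a log axis on the right, 1 line per library with colour for the strain and marker for the reporter. In the bin at 41 to 60 nt the SL libraries hold 0.187% to 0.616%, and the (AAA)12 libraries peak (21.9% in *rps3*, 16.6% in *dom34Δ*).

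Next to the stall, low counts reached farther upstream with SL than with the codon repeats, and with SL they reached less far in *rps3* cells than in the other strains. The run of positions from the stall that each held under 0.01% of the library was 2 nt long in *rps3*, 12 nt in *asc1* and 10 nt in *dom34Δ* cells with SL, and no such run existed in the 4 codon-repeat libraries. These lengths depended on the cut, and position 1038, which ended the *rps3* run, held 0.0103%. With a higher cut the SL runs were 6, 12 and 22 nt in the same order, and with a lower cut 2, 10 and 6 nt. With the higher cut *rps3* cells with (CGA)12 had a run of 2 nt. The stall position itself held 87 reads in *rps3*, 19 in *asc1* and 93 in *dom34Δ* cells with SL. It held 91 reads in *rps3* and 431 in *dom34Δ* cells with (CGA)12, and 515 and 2442 reads with (AAA)12 in the same strain order. As a share of the library these were 0.00418%, 0.000574% and 0.00191% with SL, 0.0140% and 0.0202% with (CGA)12, and 0.0850% and 0.0929% with (AAA)12. The (AAA)12 libraries thus had ends up to the stall.

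The nearest 1% of the reads of the region lay within 20 nt of the stall in *rps3*, 55 nt in *asc1* and 55 nt in *dom34Δ* cells with SL. In *rps3* cells it lay within 20 nt with (CGA)12 and 7 nt with (AAA)12, against 16 nt and 5 nt in *dom34Δ* cells. The *rps3* zone was shorter than the *dom34Δ* zone by 35 nt with SL and longer by 4 nt and 2 nt with the codon repeats. The mean difference of -9.67 ± 22.0 nt (SD, n = 3 pairs) gave p = 1 in the exact permutation test. It turned to 3 nt without the SL pair, and to 1.67 nt when the nearest 5% of the reads was used. The nearest 5% lay within 77 nt in *rps3*, 83 nt in *asc1* and 82 nt in *dom34Δ* cells with SL, and on that measure the SL strains were close.

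Within the last 20 positions, a local maximum often lay at the same distance, which does not show that distance sets it. The highest position of that stretch lay 10 nt from the stall in *rps3* and *dom34Δ* cells with SL (2439 and 887 reads), in *rps3* cells with (CGA)12 (639 reads) and in both (AAA)12 libraries (1885 reads in *rps3*, 6764 in *dom34Δ*). It lay 12 nt from the stall in *asc1* cells with SL (1246 reads) and 16 nt in *dom34Δ* cells with (CGA)12 (2437 reads). The first position from the stall that held at least 1% of the reads of the region lay much farther out. It lay 78 nt upstream in *rps3*, 125 nt in *asc1* and 79 nt in *dom34Δ* cells with SL. With both codon repeats it lay at position 915, 35 nt upstream, in *rps3* cells and at position 913, 37 nt upstream, in *dom34Δ* cells. The strains differed here in whether 915 reached the 1% cut. In *rps3* cells too 913 held more reads than 915, with 8196 against 7659 for (CGA)12 and 15074 against 5291 for (AAA)12.

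Across the libraries, the ranges of values on both sides of the edges of the region overlapped. Position 806, the first inside, held 0.0903% to 0.390% of the 7 libraries, and position 805, the last outside, held 0.119% to 0.455%. Within each of the 7 libraries 805 held more than 806, by least in *asc1* cells with SL (0.2344% against 0.2327%). The stall position had 19 to 2442 reads and the first position past it 20 to 1308. Within libraries, the stall position held fewer reads than the next in *rps3* and *asc1* cells with SL, and more in the others.

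The reads of the nearer region were spread over many positions, with a few high ones. The 10 highest held 25.6% of the reads of the region in *rps3*, 29.9% in *asc1* and 27.6% in *dom34Δ* cells with SL, 37.8% in *rps3* and 32.4% in *dom34Δ* cells with (CGA)12, and 33.1% and 29.6% with (AAA)12 in the same strain order. Median counts per position were between 1407 and 5709 reads. The highest position was 838 in *rps3* cells with SL (37244 reads, 1.79% of the library), 811 in *asc1* cells with SL (78358 reads, 2.37%) and 853 in *dom34Δ* cells with SL (89238 reads, 1.83%). With (CGA)12 it was 892 in *rps3* cells (32828 reads, 5.07%) and 867 in *dom34Δ* cells (62661 reads, 2.94%). With (AAA)12 it was 894 in *rps3* cells (23236 reads, 3.83%) and 913 in *dom34Δ* cells (61629 reads, 2.35%). The 7 libraries thus had 7 different highest positions.

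Still, high positions recurred across libraries. Over the 145 positions that all reporters share, 33 positions were among the 10 highest of any library, 17 of them in 1 library only, and 4 (811, 867, 892 and 894) in 5 of the 7 libraries. For 811, 892 and 894 these were the codon-repeat libraries, which share 1 stall, and *asc1* cells with SL. Among the codon-repeat libraries, place in PGK1 and distance from the stall cannot be told apart. In the other SL libraries, 811, 892 and 894 ranked 12, 15 and 14 in *rps3* and 39, 26 and 41 in *dom34Δ* cells. Position 867 ranked 8 and 5 there, and 40 in *asc1* cells with SL.

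Position 892 held 0.588% of the library in *rps3*, 2.10% in *asc1* and 0.283% in *dom34Δ* cells with SL, 5.07% in *rps3* and 2.46% in *dom34Δ* cells with (CGA)12, and 2.98% and 1.37% with (AAA)12 in the same strain order. Position 894, in the same order of libraries, held 0.654%, 1.95% and 0.204% with SL, 4.001% and 1.46% with (CGA)12, and 3.83% and 1.95% with (AAA)12. Both were lowest in *dom34Δ* cells with SL and highest in the *rps3* codon-repeat libraries, and *asc1* cells stood above the other SL strains at both. They lie 148 and 146 nt from the stem loop and 58 and 56 nt from the codon repeats.

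Position 811 held 0.800% in *rps3*, 2.37% in *asc1* and 0.217% in *dom34Δ* cells with SL, 1.81% in *rps3* and 1.61% in *dom34Δ* cells with (CGA)12, and 1.74% and 1.63% with (AAA)12. Position 867 held 0.892%, 0.345% and 0.752% in the same SL strains, 2.20% in *rps3* and 2.94% in *dom34Δ* cells with (CGA)12, and 0.908% and 1.125% with (AAA)12. With the codon repeats, *rps3* lay above *dom34Δ* cells at 811 and below them at 867 for each reporter, and *asc1* cells were the highest SL strain at 811 and the lowest at 867.

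Positions 904 and 913 were high with (AAA)12 in both strains. Position 913 held 0.996% in *rps3*, 0.750% in *asc1* and 0.972% in *dom34Δ* cells with SL, 1.26% in *rps3* and 0.981% in *dom34Δ* cells with (CGA)12, and 2.49% and 2.35% with (AAA)12. Position 904 held 0.890%, 0.235% and 0.794% in the same SL strains, 0.852% in *rps3* and 0.790% in *dom34Δ* cells with (CGA)12, and 2.23% and 2.05% with (AAA)12. With each reporter the *rps3* and *dom34Δ* shares at these positions lay close together.

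Position 853 held 1.43% of the SL library in *rps3*, 0.454% in *asc1* and 1.83% in *dom34Δ* cells, 0.344% in *rps3* and 1.06% in *dom34Δ* cells with (CGA)12, and 0.732% and 2.10% with (AAA)12. It was higher in *dom34Δ* than in *rps3* cells with each reporter. Position 838 held 1.79%, 0.831% and 0.527% in the same SL strains, 1.73% in *rps3* and 1.38% in *dom34Δ* cells with (CGA)12, and 1.06% and 0.816% with (AAA)12. Position 823 held 2.30% of the *asc1* library and 0.181% to 0.370% of the other 6 libraries.

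Positions 951 to 1040 belong to the nearer region with SL only. Their shares were mostly low within about 75 nt of the stem loop and higher beyond. Their highest position was 961, 79 nt from the stem loop, in *rps3* (9795 reads, 0.470%) and *dom34Δ* cells (17596 reads, 0.362%), and 957, 83 nt from it, in *asc1* cells (13715 reads, 0.414%).

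**Figure D3:**
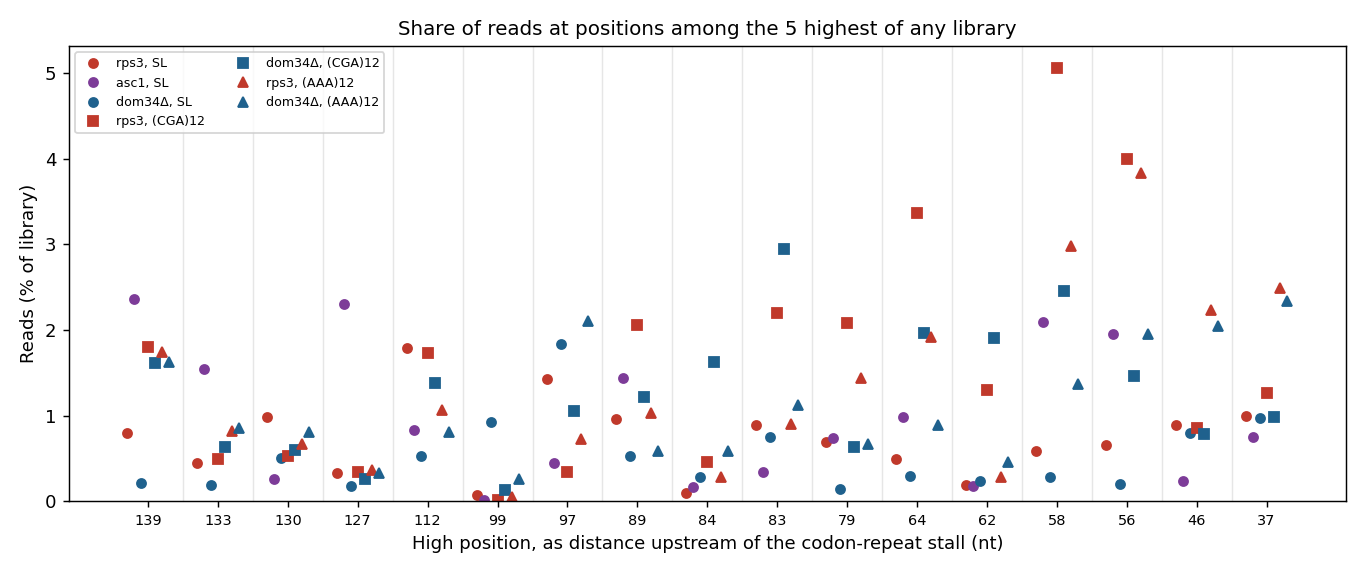
Share of library reads (%, vertical axis) in each of the 7 libraries at the positions that were among the 5 highest of the nearer region in any library, ordered along PGK1 and given as distance upstream of the codon-repeat stall (nt), with colour for the strain and marker for the reporter. At 58 and 56 nt (positions 892 and 894) the SL libraries of *rps3* and *dom34Δ* cells hold 0.204% to 0.654%, and the *rps3* codon-repeat libraries hold 2.98% to 5.07%.

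Profiles of different reporters resembled each other by position and hardly by distance from the stall. Over the 12 pairs of an SL with a codon-repeat library, the Spearman correlation of the counts across 145 positions was 0.414 to 0.767 (median 0.699) when positions were matched by their number, and 0.0628 to 0.389 (median 0.185) when they were matched by distance. The same held for the fine structure left after a running median over 31 positions was removed, with 0.465 to 0.869 (median 0.717) by number and 0.110 to 0.300 (median 0.219) by distance. Among these pairs, the fine structure by number correlated at 0.680 to 0.869 within *rps3* or *dom34Δ* cells and at 0.479 to 0.804 between these strains. Pairs of strains with the same reporter were not among them. For such *rps3* and *dom34Δ* pairs the counts themselves correlated at 0.687 with SL, 0.871 with (CGA)12 and 0.857 with (AAA)12. These values describe the libraries. Positions matched by number share their local sequence and the PCR product length, neighbouring positions are not independent, and how much of the likeness comes from ligation or amplification was not tested.

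Tests at single positions were run over the 345 positions 606 to 950 with edgeR's quasi-likelihood test and Benjamini-Hochberg adjustment, on shares within that span. Because shares within the span sum to a whole, calls in the nearer and the far region are not independent. For *rps3* over *dom34Δ*, with the reporter as a covariate and 2 residual degrees of freedom, 104 of 345 positions (30.1%) had an adjusted p under 0.05, of which 34 (9.86%) were higher and 70 (20.3%) lower. In the nearer region 20 of 145 positions were higher and 12 lower, and in the far region 14 of 200 were higher and 58 lower. The median log2 fold change was 0.27 over the nearer region, -0.26 over the far region and 0.03 over all positions. At 68 positions of the nearer region *rps3* was higher with each of the 3 reporters, and at 25 it was lower with each, against 45 and 87 positions of the far region.

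The higher calls clustered at 41 to 80 nt from the codon-repeat stall, with 12 of the 40 positions there higher, against 2 higher and 3 lower among the 41 positions at 0 to 40 nt and 6 higher and 6 lower among the 40 at 81 to 120 nt. These counts depended on single reporters. Without the SL pair, 77 of 145 positions of the nearer region were called, and 193 of 344 over the whole span. Without the (CGA)12 pair these counts were 2 of 145 and 33 of 345, and without the (AAA)12 pair 14 of 145 and 68 of 345. DESeq2 on the full set called 60 of 145 and 163 of 345.

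Of the positions higher in *rps3* cells, position 871 held 0.692% of the library in *rps3*, 0.741% in *asc1* and 0.141% in *dom34Δ* cells with SL, 2.08% in *rps3* and 0.641% in *dom34Δ* cells with (CGA)12, and 1.44% and 0.673% with (AAA)12. Every *rps3* value lay above every *dom34Δ* value, with a log2 fold change of 1.72 ± 0.30 (SE, adjusted p = 0.00743). Its neighbours 872 and 873 changed alike, at 1.55 ± 0.30 (adjusted p = 0.01002) and 1.505 ± 0.31 (adjusted p = 0.0122).

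Position 831 held 0.324%, 0.479% and 0.0676% in *rps3*, *asc1* and *dom34Δ* cells with SL, 0.480% in *rps3* and 0.179% in *dom34Δ* cells with (CGA)12, and 0.418% and 0.145% with (AAA)12. Here too the strains did not overlap, and the log2 fold change was 1.75 ± 0.31 (adjusted p = 0.00781), with 1.60 ± 0.39 (adjusted p = 0.0217) at position 830. Without the (CGA)12 pair, all 5 of these positions lost their call (adjusted p = 0.0867 to 0.135), with log2 fold changes of 1.23 to 1.92. Of the recurrent high positions, 892 rose by 1.09 ± 0.17 (adjusted p = 0.00471) and 894 by 1.39 ± 0.22 (adjusted p = 0.00432) on the log2 scale, whereas 811 and 867 were not called (0.71 ± 0.39 and -0.15 ± 0.23).

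Of the positions lower in *rps3* cells, position 851 held 0.0801% of the library in *rps3*, 0.0176% in *asc1* and 0.930% in *dom34Δ* cells with SL, 0.0210% in *rps3* and 0.137% in *dom34Δ* cells with (CGA)12, and 0.0470% and 0.267% with (AAA)12. Every *rps3* value lay below every *dom34Δ* value, and the log2 fold change was -2.90 ± 0.34 (adjusted p = 0.00131). Position 826 held 0.0278%, 0.0689% and 0.295% in *rps3*, *asc1* and *dom34Δ* cells with SL, 0.0327% in *rps3* and 0.313% in *dom34Δ* cells with (CGA)12, and 0.0345% and 0.221% with (AAA)12. Its *rps3* values were nearly equal over the reporters, and the log2 fold change was -3.10 ± 0.31 (adjusted p = 0.000731). Positions 851 and 826 were the 2 that remained called without the (CGA)12 pair.

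Position 807 held 0.111%, 0.103% and 0.537% in *rps3*, *asc1* and *dom34Δ* cells with SL, 0.119% in *rps3* and 0.711% in *dom34Δ* cells with (CGA)12, and 0.104% and 0.385% with (AAA)12, a log2 fold change of -2.23 ± 0.30 (adjusted p = 0.00222). Positions 848 and 866 fell by 1.62 ± 0.44 (adjusted p = 0.0330) and 1.45 ± 0.28 (adjusted p = 0.01002) on the log2 scale. At 807, 826 and 851 the *asc1* library, which did not enter the test, lay nearer to *rps3* than to *dom34Δ* cells with SL. Position 853, 2 nt from 851, fell by 1.15 ± 0.31 (adjusted p = 0.0330).

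The same test of SL over the codon repeats, with strain as a covariate and 3 residual degrees of freedom, called 128 of 345 positions (37.1%), 89 higher (25.8%) and 39 lower (11.3%). In the nearer region 3 of 145 positions were higher and 39 lower, so that every lower call lay in it. The median log2 fold change was -0.69 over the nearer region, 0.84 over the far region and 0.31 over all positions. With TMM scaling, which moved the median of all positions to 0.05, 60 positions were higher and 54 lower, and the nearer region held 3 higher and 47 lower calls. Of the 40 positions at 41 to 80 nt from the codon-repeat stall, 29 were lower with SL. Over all 345 positions, 6 were called without (CGA)12, 119 without (AAA)12 and 203 with DESeq2 on the full set. In the nearer region 4 positions were called without (CGA)12 (all lower), 54 without (AAA)12 (21 higher, 33 lower), 0 without *rps3* cells and 26 without *dom34Δ* cells (6 higher, 20 lower), and DESeq2 called 83 on the full set (6 higher, 77 lower). Without *rps3* cells 34 positions of the nearer region still had an unadjusted p under 0.05.

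The positions that fell most with SL formed a block around the recurrent high positions. The log2 fold change was -2.82 ± 0.60 at 887 (adjusted p = 0.0118), -2.72 ± 0.49 at 892 (adjusted p = 0.00963), -2.56 ± 0.37 at 893 (adjusted p = 0.00800), -2.77 ± 0.43 at 894 (adjusted p = 0.00963) and -2.64 ± 0.48 at 896 (adjusted p = 0.00963). Position 896 held 0.282% of the SL library in *rps3*, 0.657% in *asc1* (not in the test) and 0.0798% in *dom34Δ* cells, against 1.25% in *rps3* and 0.443% in *dom34Δ* cells with (CGA)12 and 1.69% and 0.854% with (AAA)12. Positions 892, 894 and 896 kept their call without (CGA)12, and none of the 5 kept it without *rps3* cells (adjusted p = 0.0757 to 0.158), where SL was 1 library and the log2 fold changes were -3.04 to -2.59.

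The 3 positions higher with SL were 934, 851 and 931, a number that became 21 without (AAA)12 and 6 without *dom34Δ* cells. Position 934 held 0.462% in *rps3*, 0.118% in *asc1* and 0.558% in *dom34Δ* cells with SL, against 0.0665% in *rps3* and 0.114% in *dom34Δ* cells with (CGA)12 and 0.141% and 0.239% with (AAA)12. It lies 16 nt from the codon-repeat stall and 106 nt from the stem loop, and its log2 fold change was 1.96 ± 0.43 (adjusted p = 0.0119). Position 851 changed by 1.79 ± 0.45 (adjusted p = 0.0195) and position 931 by 1.17 ± 0.35 (adjusted p = 0.0335). None of the 3 kept its call without (CGA)12 or without *rps3* cells, where the log2 fold change was 1.51 and 1.68 at 934, 1.33 and 2.23 at 851, and 0.93 and 0.73 at 931.

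**Figure D4:**
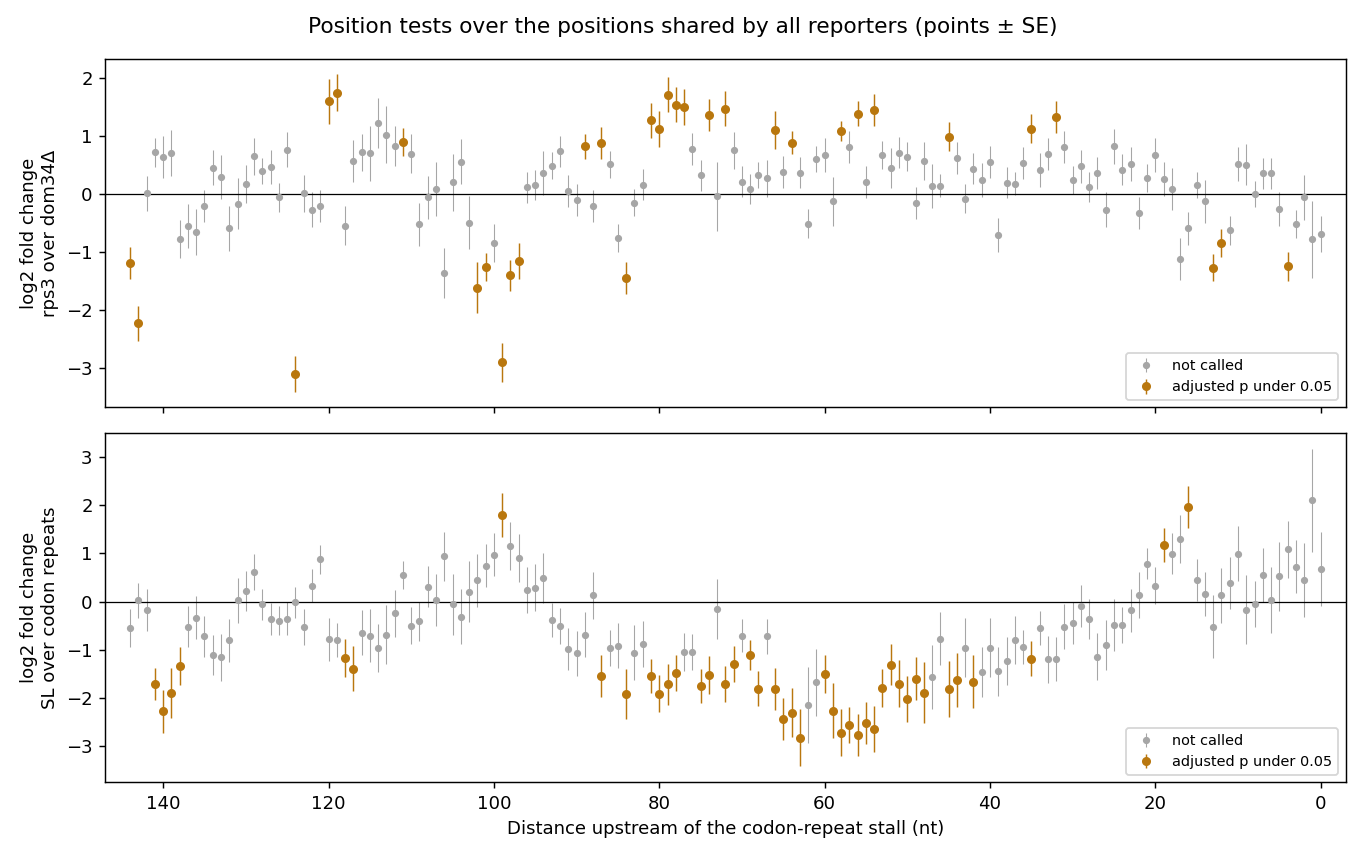
Log2 fold change ± SE per position of the nearer region shared by all reporters, by distance upstream of the codon-repeat stall (nt), for *rps3* over *dom34Δ* (top) and SL over the codon repeats (bottom), with called positions (edgeR adjusted p under 0.05) in orange. At 41 to 80 nt, 12 positions were higher in *rps3* cells and 29 were lower with SL.

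Ribosomes move along a message codon by codon, so the ends were also sorted by the remainder of the position divided by 3. Which remainder is which place in a codon was not settled here, since no reporter sequence was used. Remainder 1 held the largest share of the reads of the nearer region in every library, with 49.7% in *rps3*, 39.6% in *asc1* and 52.8% in *dom34Δ* cells with SL, 44.9% in *rps3* and 45.1% in *dom34Δ* cells with (CGA)12, and 43.6% and 47.2% with (AAA)12. Remainder 2 held 18.2%, 28.1% and 19.1% in the same SL strains, 19.3% and 20.3% with (CGA)12, and 20.8% and 20.8% with (AAA)12. The *asc1* library was the most even of the 7. Of the 70 places among the 10 highest positions of each library, 44 had remainder 1, 21 had remainder 0 and 5 had remainder 2.

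The preference also held when each place counted once, in 6 of the 7 libraries. Split into groups of 3 neighbouring positions, the nearer region had remainder 1 highest in 45 of 78 groups in *rps3* and 53 of 78 in *dom34Δ* cells with SL, in 25 and 30 of 48 with (CGA)12, and in 27 and 32 of 48 with (AAA)12. In *asc1* cells it was highest in 23 of 78 groups, and remainder 2 in 32.

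Remainder 1 held a slightly smaller share in the nearer than in the far region in 6 of the 7 libraries. The far region had 52.6% in *rps3*, 39.9% in *asc1* and 51.9% in *dom34Δ* cells with SL, 47.004% in *rps3* and 50.8% in *dom34Δ* cells with (CGA)12, and 47.5% and 50.7% with (AAA)12. Near minus far was -2.89, -0.28 and 0.87 percentage points in *rps3*, *asc1* and *dom34Δ* cells with SL, -2.13 and -5.65 in *rps3* and *dom34Δ* cells with (CGA)12, and -3.92 and -3.47 with (AAA)12. The mean was -2.49 ± 2.22 points (SD, n = 7), with an exact permutation p of 0.0469, or 0.188 after adjustment over the 4 tests. Libraries of 1 strain or reporter are not independent. By the share of groups of 3 positions the mean was 4.36 points. Those groups were cut from the first position of each region, 806 and 606, which differ in remainder. Near and far groups thus begin at different remainders, and their difference is not a like-for-like check of the sign. Without the highest position of each library the mean difference in read share was -1.47 points (exact permutation p = 0.344).

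Remainder 0 held a larger share in the middle of the shared stretch than on either side of it, with all reporters. With SL this was at 144 to 191 nt (positions 849 to 896), where remainder 0 held 37.7% in *rps3*, 38.7% in *asc1* and 32.5% of the reads in *dom34Δ* cells. On either side, at 96 to 143 and 192 to 233 nt, it held 28.9% and 28.4% in *rps3*, 33.2% and 25.3% in *asc1*, and 23.3% and 28.6% in *dom34Δ* cells. With the codon repeats this was at 48 to 95 nt (positions 855 to 902), which held 62.5% of the reads of the region in *rps3* and 52.4% in *dom34Δ* cells with (CGA)12, and 52.9% and 41.4% with (AAA)12. There remainder 0 held 38.8% of the reads and remainder 1 42.6% in *rps3* cells with (CGA)12, against 40.3% and 39.98% in *dom34Δ* cells. With (AAA)12, remainder 0 held 42.3% and remainder 1 35.2% in *rps3* cells, against 40.2% and 36.6% in *dom34Δ* cells. At 0 to 47 nt and at 96 to 143 nt, remainder 0 held 22.9% to 34.3% and remainder 1 held 45.9% to 57.5% in these 4 libraries. Position 894, of remainder 0, alone held 4.001% and 3.83% of the *rps3* codon-repeat libraries.

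At the distance of 48 to 95 nt itself, remainder 0 held 31.5% of the SL reads in *rps3*, 38.3% in *asc1* and 23.1% in *dom34Δ* cells. The stalls lie 90 nt apart, a multiple of 3, and both have remainder 2, so the remainder of a position and that of its distance from the stall cannot be told apart.

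**Figure D5:**
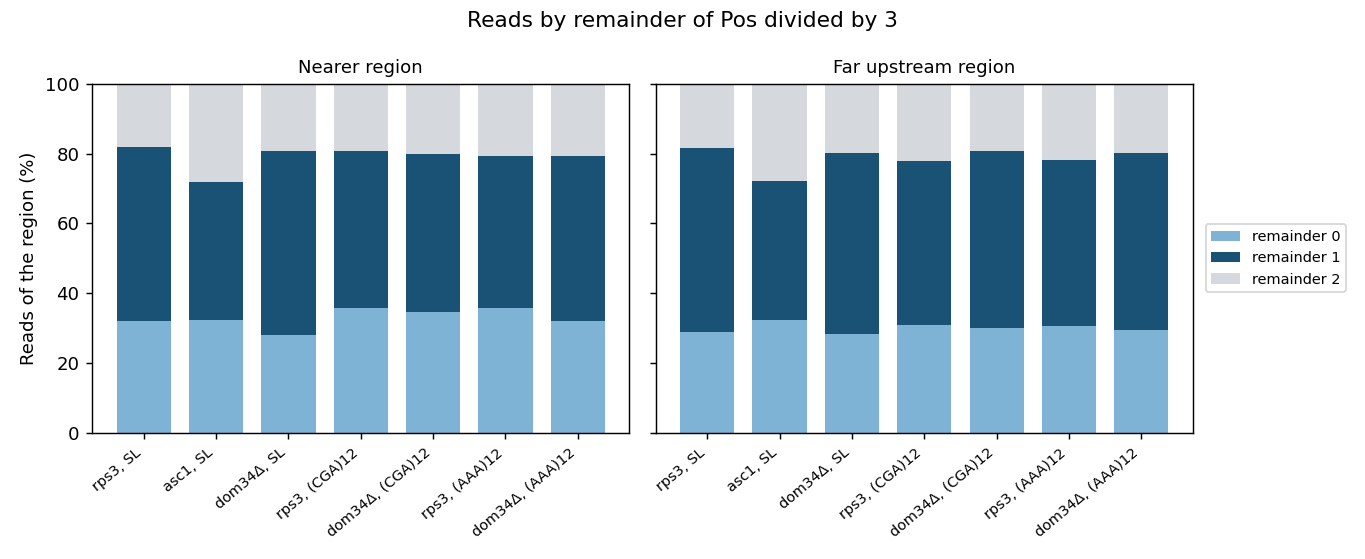
Share of the reads (%, vertical axis) at positions of each remainder of the position divided by 3, for the nearer region (left) and the far region (right) in the 7 libraries. Remainder 1 is the largest class in every bar, from 39.6% in *asc1* cells with SL to 52.8% in *dom34Δ* cells with SL in the nearer region.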

How the data were processed

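Total RNA received an adaptor at its 3'-ends, and cDNA was amplified from a primer at PGK1 position 585. The authors trimmed and aligned the reads to the reporter and deposited raw counts of reads per position. The submitters' processing notes name cutadapt 1.12, Novoalign, SAMtools 1.13 and bedtools. How the aligner was set, and whether duplicates were removed, is not given in the sources used here. A position that was not listed was counted as 0 reads.

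Shares, Wilson intervals, windows and exact sign-flip permutation tests (2-sided) were computed in Python 3.11.15 with NumPy 2.4.6, pandas 2.3.3, SciPy 1.17.1 and matplotlib 3.10.9. Positions were tested in R 4.3.3 with edgeR 4.0.16 (glmQLFit, glmQLFTest) on the deposited counts, with library size taken as the sum over the 345 shared positions and a filter of 10 reads in 3 libraries, which every position passed. DESeq2 1.42.0, TMM scaling, no filter, 5-nt bins and leaving out a reporter or strain were alternatives, as were capped counts, leaving out the highest positions and other definitions of each measure. The scripts were tested on simulated data.

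Named positions were the 5 highest of each library, those among the 10 highest in 5 or more libraries, the 5 called positions with the largest fold change each way, the highest of the SL-only stretch and the first from the stall with at least 1% of the reads of the region. The region, the measures and these rules were chosen with earlier results of these data known. No sequence is shown, since no reporter sequence was used here.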

Additional observations from a re-analysis of the deposited data

Results flagged for a closer look

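The strain difference in the extent of the zone of low counts pointed in opposite directions between reporters. The distance from the stall that held the nearest 1% of the reads of the nearer region differed, as *rps3* minus *dom34Δ*, by -35 nt with SL, 4 nt with (CGA)12 and 2 nt with (AAA)12. Each value rests on 1 library per strain, and the difference between reporters was not tested.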

How the results depend on the processing

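Strains were paired by reporter only, since the labels carry no replicate numbers to pair by. The higher share of the nearer region and the shallower decline in *rps3* cells kept their direction under every setting run (share difference 8.42 to 12.4 points, log2 decline difference -1.12 to -0.36 and -0.15 per bin as a slope). The equal span of 144 positions (8.42 points) and a far region of 145 positions (-3.27 points for remainder 1) were chosen after seeing the data. Leaving out 1 reporter gave a difference in the extent of the low zone of -16.5 to 3 nt, positive without SL, and the nearest 5% gave 1.67 nt. For remainder 1, near minus far, leaving out 1 library gave -3.06 to -1.97 points (exact permutation p of 0.0313 without *dom34Δ* with SL and 0.0625 to 0.0938 without each of the others). Without the highest positions it was -1.47, with capped counts -3.60 and by groups of 3 positions 4.36 points. By such groups, which begin at different remainders in the nearer and the far region, it was negative only in *asc1* cells with SL (-3.85 points). It was positive at 0.117 (*rps3*, SL), 8.86 (*dom34Δ*, SL), 2.08 (*rps3*, (CGA)12), 4.92 (*dom34Δ*, (CGA)12), 6.25 (*rps3*, (AAA)12) and 12.1 points (*dom34Δ*, (AAA)12). By share of reads it was 3.79 points in *asc1* cells without the highest position. The positions named from both tests kept their direction wherever they lost their call. Over all 345 positions, the strain test called 104 positions, 121 with TMM, 163 with DESeq2, 23 of 69 bins of 5 nt, and 33 to 193 when 1 reporter was left out (33 without (CGA)12, 68 without (AAA)12, 193 without SL). The reporter test called 128, 114 with TMM, 203 with DESeq2, 29 of 69 bins, and 0 to 119 when a reporter or strain was left out (6 without (CGA)12, 85 without *dom34Δ*, 0 without *rps3*, where 94 positions had an unadjusted p under 0.05). Bins test fewer features, and fits with libraries left out use fewer samples. The strain test nevertheless called more positions without SL (193) than on the full set (104). Why the counts changed was not tested. Alternative values for single libraries or positions were also compared with the first value. Of those that did not change sign, 109 counted as equal within the spread or call, 83 moved and 23 lost their call. The number of molecules behind the reads is not known, so how far depth limits each comparison was not tested.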
